A study of Mus musculus with 6 samples.

Results

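The minor spliceosome of naïve CD4 T cells was described by 10 genes, the U12 and U11 small nuclear RNA (snRNA) genes Rnu12 and Rnu11 and 8 genes for protein partners, among the 46983 genes counted in the series. The members were chosen by gene symbol with the difference between Rnmt cKO and control libraries already known. Their fold changes are therefore given as a description, and no p-value is printed for a member. Where a member is said to pass the threshold or not, that too is a description. All 10 had more than 1 CPM (a TMM-scaled share of all reads in a library) in 3 or more libraries and were among the 12336 genes tested.

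RNA sequencing of rRNA-depleted total RNA was available for 6 libraries of naïve CD4 T cells, which were obtained from lymph nodes of male mice by cell sorting. The 3 control libraries carried the genotype Rnmt fl/fl CD4cre - and the 3 Rnmt cKO libraries Rnmt fl/fl CD4cre +. All animals therefore had floxed Rnmt alleles, and the Cre transgene, driven by Cd4 regulatory sequence that is active from the double positive thymocyte stage, was present in the cKO animals alone. The effect of the transgene and the effect of losing Rnmt cannot be told apart in this design. Nothing in the labels says whether a library came from 1 animal or from pooled animals, so the p-values measure the spread between these libraries. Animal ages were not given in the sources used here.

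RNMT is the enzyme that methylates the guanosine cap on RNA polymerase II transcripts. Rnmt itself fell from 56.02 ± 3.94 to 35.3 ± 7.88 CPM (SD, n = 3 each; log2 fold change -0.67, SE 0.20, adjusted p = 0.00035, edgeR exact test), a count that spans the floxed exon and the rest of the gene. Between 8873413 and 11277764 sense counts were assigned to genes per library. The share of uniquely mapped reads that fell in no gene was 36.1 to 46.1% in controls and 31.8 to 47.9% in cKO libraries. All 8 naïve CD4 T cell markers were present at 137.1 CPM or more in each library, with summed levels of 4643 to 5062 CPM in controls and 5435 to 6173 CPM in cKO. In the whole comparison 844 genes were lower (6.84% of those tested) and 987 higher (8.0%) in cKO.

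The minor spliceosome removes a small class of introns, the U12-type introns, that carry long conserved sequences at the 5′ splice site and the branch site. U11 snRNA pairs with the 5′ splice site and U12 snRNA with the branch site, and the pair enters the reaction as a U11/U12 di-snRNP with a set of proteins that the major spliceosome lacks. U12 and U11 are transcribed by RNA polymerase II, receive a cap that is methylated first in the nucleus and then further in the cytoplasm, and bind a ring of Sm proteins. The other minor snRNAs, U4atac and U6atac, were not analysed here.

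Both snRNAs are printed whole, because their pairing regions define which introns the particle recognises. Rnu12 (ENSMUSG00000065176) is a single-exon gene of 151 bases at chr15:83149644-83149794 on the plus strand of GRCm38, and Rnu11 (ENSMUSG00000077323) one of 134 bases at chr4:132270080-132270213 on the minus strand. Sequences are DNA letters from the GENCODE vM21 transcripts, 5′ to 3′, with 2 stretches of each in capitals, the bases that pair with the intron and the A, T-run and G of the Sm site.
Rnu12: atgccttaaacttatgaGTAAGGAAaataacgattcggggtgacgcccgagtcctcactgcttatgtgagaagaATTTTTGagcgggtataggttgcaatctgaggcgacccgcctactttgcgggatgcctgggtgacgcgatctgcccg
Rnu11: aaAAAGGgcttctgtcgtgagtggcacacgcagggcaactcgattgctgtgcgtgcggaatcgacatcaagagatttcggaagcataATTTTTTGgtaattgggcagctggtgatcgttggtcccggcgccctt

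The pairing stretch of Rnu12, GTAAGGAA at bases 18 to 25, is found on the transcript strand of 9 of 1383 annotated snRNA genes (0.651%), and the shorter AAAGG of Rnu11 at bases 3 to 7 in 108 (7.81%). An A followed by 4 to 6 T and a G, the form of the Sm site searched here on the transcript strand, is in 8.97% of snRNA genes and lies at bases 75 to 81 of Rnu12 and 88 to 95 of Rnu11. A match of this kind is a description of letters.

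Introns whose ends hold the letters of U12-type motifs are shown for 4 genes. Whether the minor spliceosome removes them was not measured. E2f6, Pola2 and Trappc2 were picked as well-known carriers of U12-type introns, and Snrnp48 because it is itself a member. Capitals mark the first 8 bases of each intron, where CCTT is complementary to the AAGG of Rnu11, and the branch motif within its last 40 bases, which lies in the region that pairs with the capitals near the start of Rnu12. The Snrnp48 intron, of 396 bases, belongs to a transcript outside the basic annotation set, and it is shown as a match of letters alone.
E2f6, start of intron chr12:16820385-16822092 (+): ATATCCTT
E2f6, end of the same intron: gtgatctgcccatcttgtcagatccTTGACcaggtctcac
Pola2, start of intron chr19:5958876-5959032 (-): GTATCCTT
Pola2, end of the same intron: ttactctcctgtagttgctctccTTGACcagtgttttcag
Snrnp48, start of intron chr13:38214668-38215063 (+): GTATCCTT
Snrnp48, end of the same intron: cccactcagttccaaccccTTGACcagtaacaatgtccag
Trappc2, start of intron chrX:166449933-166450628 (+): ATATCCTT
Trappc2, end of the same intron: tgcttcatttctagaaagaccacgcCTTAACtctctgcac

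Among the members, both snRNAs were low in the cKO libraries while 7 of the 8 protein genes had overlapping groups. Of the 10 members, 2 were lower and 0 were higher at the threshold, against 6.84% and 8.0% of all genes tested, and every cKO library lay below every control in 2 members and above in 1, against 14.9% and 16.6% of all genes. These counts come from the contrast the members were chosen on, and nothing is read from them.

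Rnu12, the RNA that base pairs with the branch site, was at 99.8, 70.4 and 94.2 CPM in control libraries 1, 2 and 3 and at 22.6, 19.8 and 36.8 CPM in cKO libraries 1, 2 and 3. The highest cKO library, cKO 3, lay well below the lowest control, control 2. The means were 88.1 ± 15.6 and 26.4 ± 9.12 CPM (SD, n = 3 each), so that cKO libraries held 29.98% of the control level, a log2 fold change of -1.74 (SE 0.31). Between 214 and 853 reads stood behind each value. In bulk libraries a lower level in each cell and fewer cells with the RNA cannot be told apart.

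Rnu11, the partner that base pairs with the 5′ splice site, was at 39.5, 22.9 and 29.0 CPM in controls and at 10.4, 11.1 and 16.9 CPM in cKO. Again control 2 was the lowest control, cKO 3 the highest cKO library, and the groups were apart. The means were 30.5 ± 8.41 and 12.8 ± 3.57 CPM (SD, n = 3 each), 41.9% of control and a log2 fold change of -1.25 (SE 0.31). Counts ran from 98 to 336 per library.

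Libraries also differed in the share of reads in no gene. With that share as a covariate the log2 fold changes were -1.72 for Rnu12 and -1.21 for Rnu11. Within the 3 libraries where that share was low, controls 1 and 2 and cKO 3, the log2 fold change was -1.18 for Rnu12 and -0.83 for Rnu11, and within the 3 where it was high, control 3 and cKO 1 and 2, it was -2.14 and -1.42. Each set holds only 1 library of one group, and since every cKO library lay below every control in both genes, any such set gives a negative value. Over the 6 libraries log2 CPM of Rnu12 and Rnu11 had a Pearson r of 0.976, which is a description over libraries that share depth and group.

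Whether the 2 snRNAs were lowered in equal proportion was not tested, and the log2 fold changes of -1.74 and -1.25 each had an SE of 0.31. The ratio of the 2 RNAs also depends on how many fragments each lost to copies, described below. Per length, Rnu12 exceeded Rnu11 by a ratio of 2.24, 2.73 and 2.88 in controls and of 1.94, 1.59 and 1.94 in cKO. Every cKO ratio lay below every control ratio (2.62 ± 0.333 and 1.82 ± 0.200; SD, n = 3 each), and no test is given because both RNAs were chosen on the same contrast.

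**Figure D1:**
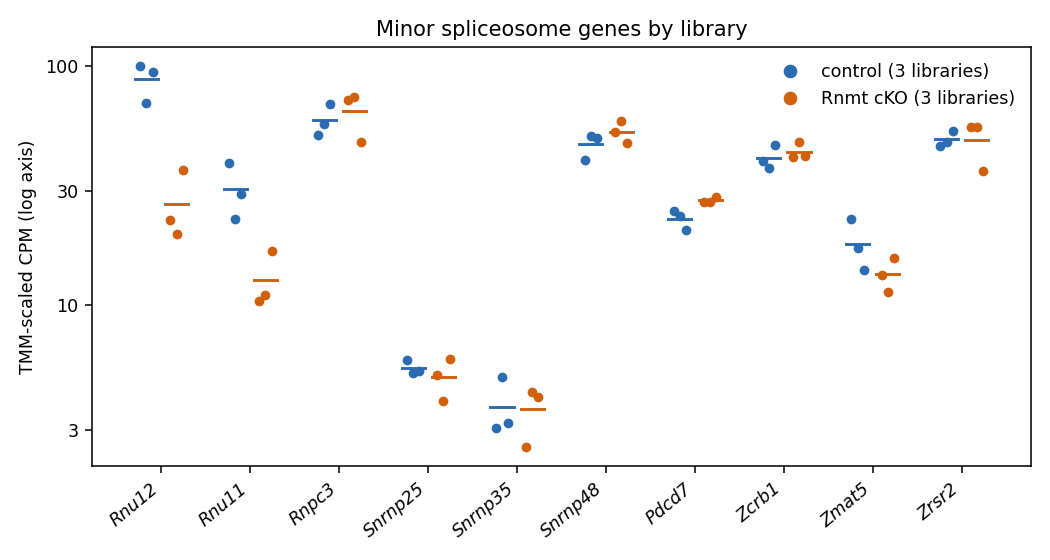
TMM-scaled CPM (log axis) of the 10 minor spliceosome genes, with 1 point per library, control and Rnmt cKO side by side (3 libraries each) and a bar at each group mean. Rnu12 and Rnu11 separate by group, 70.4 to 99.8 against 19.8 to 36.8 CPM and 22.9 to 39.5 against 10.4 to 16.9 CPM, whereas 7 of the 8 protein genes overlap.

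Sequence and position limit how exactly the snRNA levels can be stated. Of the 122 stretches of 30 bases in Rnu12, 107 also occur in 3 other annotated snRNA genes, Gm24525, Gm23502 and Gm25703, and of the 105 in Rnu11, 20 occur in 2 others, Gm24890 and Gm22472. The deposited tables hold uniquely mapped reads, so fragments that fit a copy equally well are missing from these counts. The 5 copies themselves had 0 to 2 counts per library. Multimapping fragments numbered 2334842 to 3147171 in controls and 1567782 to 2726184 in cKO libraries, and their part in the snRNA values was not tested.

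Strand mattered for Rnu11. It lies opposite the long noncoding RNA gene Gm28872 (chr4:132270056-132270213, plus strand), and in the count column that ignores strand Rnu11 was at 0 in all 6 libraries, because a fragment that overlaps both genes is assigned to neither. On the strand-specific columns 1245 reads were sense to Rnu11 and 1 antisense. For Rnu12 3267 reads were sense and 15 antisense, and its neighbour Poldip3, which starts 260 bp away on the opposite strand, was at 119.8 ± 2.48 CPM in controls and 135.5 ± 12.98 CPM in cKO (log2 fold change 0.18, SE 0.08, adjusted p = 0.259, edgeR exact test).

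The proteins of the U11/U12 di-snRNP are taken by where they sit in the particle. Rnpc3 (chr3:113605067-113630149, minus strand) encodes the protein that binds U12 snRNA and bridges to the U11 side. It was at 51.6, 57.0 and 69.5 CPM in controls and 72.5, 74.2 and 48.0 CPM in cKO, with a log2 fold change of 0.13 (SE 0.24). The cKO libraries 1 and 2 were above all controls and cKO 3 below them, so the groups overlapped, and within the low and high sets of libraries the fold change was -0.18 and 0.08 on the log2 scale. Rnpc3 shares exon sequence with Amy1 on the same strand, which itself had 0 to 11 counts.

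Pdcd7 (chr9:65346104-65359643, plus strand) encodes the U11-side protein to which the Rnpc3 product binds. It was at 24.8, 23.6 and 20.5 CPM in controls and at 26.9, 27.0 and 28.4 CPM in cKO. All cKO libraries lay just above all controls, with means of 22.97 ± 2.19 and 27.5 ± 0.832 CPM (SD, n = 3 each) and a log2 fold change of 0.26 (SE 0.08), and it was the one protein member whose groups did not overlap. The gene did not pass the threshold, except under library-size scaling alone and with the share of reads in no gene as a covariate.

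Snrnp48, Snrnp35 and Snrnp25 encode further U11 proteins. Snrnp48 (chr13:38204938-38227665, plus strand), whose product helps read the 5′ splice site, was at 40.6, 51.1 and 49.8 CPM in controls and 53.2, 58.7 and 47.5 CPM in cKO (log2 fold change 0.17, SE 0.14). Snrnp35 (chr5:124483134-124491124, plus strand), the U11 counterpart of a U1-specific protein, was at 3.06, 4.99 and 3.20 CPM in controls and 2.54, 4.30 and 4.12 CPM in cKO (log2 fold change -0.04, SE 0.31). Snrnp25 (chr11:32205415-32208984, plus strand) was at 5.88, 5.19 and 5.30 CPM in controls and 5.07, 3.97 and 5.92 CPM in cKO (log2 fold change -0.13, SE 0.17). The groups overlapped in each of the 3, and Snrnp35 and Snrnp25 rested on as few as 24 and 47 reads in a library.

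Zcrb1, Zmat5 and Zrsr2 encode zinc finger proteins of the same particle. Zcrb1 (chr15:93386097-93398334, minus strand) was at 40.1, 37.6 and 46.6 CPM in controls and 41.5, 48.2 and 41.9 CPM in cKO (log2 fold change 0.08, SE 0.11). Zrsr2 (chrX:163935443-163958661, minus strand), which recognises the 3′ splice site of U12-type introns, was at 46.3, 48.3 and 53.5 CPM in controls and 55.4, 55.4 and 36.4 CPM in cKO (log2 fold change -0.01, SE 0.21). As with Rnpc3, cKO 1 and 2 were above and cKO 3 below all controls for Zrsr2, and the fold change was -0.38 in the low set of libraries and 0.05 in the high set.

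Zmat5 (chr11:4704678-4737669, plus strand) had the lowest fold change of the protein members. It was at 22.8, 17.4 and 14.0 CPM in controls and 13.3, 11.3 and 15.7 CPM in cKO, a log2 fold change of -0.43 (SE 0.24). Controls ranged widely and cKO 3 was above control 3, so the groups overlapped. Without control 3 or cKO 3 the log2 fold change was -0.58 or -0.57, and the members lower then numbered 3. The gene overlaps Cabp7 on the opposite strand, and the column without strand held 72 to 91 of its 126 to 194 reads per library.

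Over the 8 protein members the median log2 fold change was 0.04, against 0.01 over all genes tested, with a range from -0.43 to 0.26, 4 above 0 and 4 below. Their summed level was 247.6 ± 13.8 CPM in controls and 260.5 ± 28.9 CPM in cKO, and the groups overlapped. The sum of Rnu12 and Rnu11 was 118.6 ± 23.4 and 39.2 ± 12.6 CPM (SD, n = 3 each). That sum lay between 93.2 and 139.3 CPM in the control libraries and between 30.9 and 53.7 CPM in the cKO libraries.

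**Figure D2:**
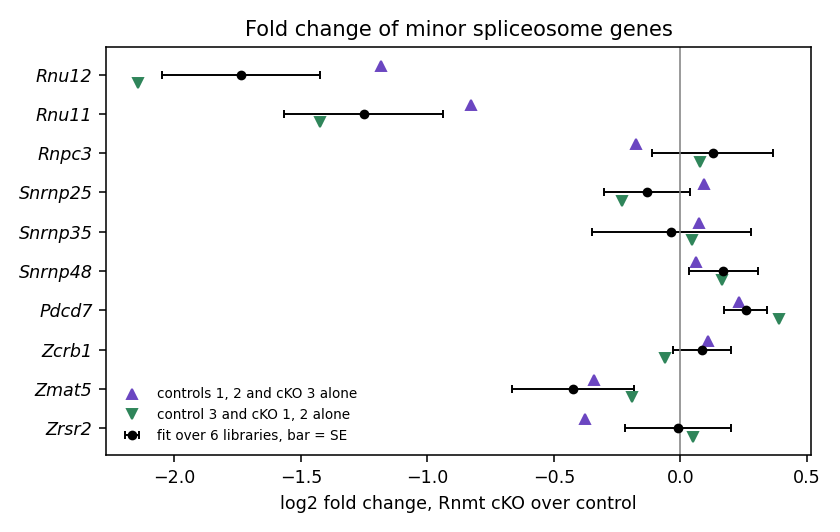
log2 fold change, Rnmt cKO over control, of the 10 members, with black points and bars for the value and SE over 6 libraries, upward triangles for controls 1 and 2 with cKO 3, and downward triangles for control 3 with cKO 1 and 2. Rnu12 and Rnu11 lie at -2.14 and -1.18 and at -1.42 and -0.83 in the sets, and the protein genes lie between -0.43 and 0.26 over 6 libraries.

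Between genes, levels were compared per length as RPKM (CPM divided by exon length in kilobases). Exon length counts every base in an exon of any annotated transcript of the gene, used in these cells or not. In control cells Rnu12 was at 584 ± 104 RPKM and Rnu11 at 227 ± 62.8 RPKM, followed at a distance by Zmat5 (14.5 ± 3.55), Zcrb1 (13.5 ± 1.51), Pdcd7 (9.19 ± 0.877), Rnpc3 (8.96 ± 1.38), Zrsr2 (6.86 ± 0.512), Snrnp25 (5.24 ± 0.355), Snrnp48 (4.66 ± 0.568) and Snrnp35 (2.78 ± 0.799; SD, n = 3 for each). The control ranges of neighbours in this order overlapped for Zmat5 and Zcrb1, for Pdcd7 and Rnpc3, and for Snrnp25 and Snrnp48. The order of the protein genes depends on these lengths, which were 1248 bases for Zmat5, 6627 for Rnpc3 and 10129 for Snrnp48. In CPM the highest protein gene in controls was Rnpc3 (mean 59.4), and Zmat5 was at 18.1. In cKO cells Rnu12 at 175 ± 60.4 RPKM and Rnu11 at 95.2 ± 26.6 RPKM were still above every protein gene. The capture of RNAs as short as these by the library protocol was not measured, so the ratio of an snRNA to a message is a ratio of reads, not of molecules.

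The other annotated snRNA genes were set beside Rnu12 and Rnu11. They include the RNAs of the major spliceosome, of which U6 is made by RNA polymerase III and the rest by RNA polymerase II with the same kind of cap. The copies of Rnu12 and Rnu11 are among them too. The A, T-run and G of the Sm site was found in 122 of these genes and not in 1259. Which polymerase makes each gene was not assigned. Of 1381, 26 were tested, of which 9 fell (34.6%, against 6.84% of all genes tested) and 0 rose by the edgeR exact test (1 at an unadjusted p under 0.05), with a median log2 fold change of -0.42. The quasi-likelihood test and DESeq2 called 6 and 5 lower and 0 higher, and the count lower was 4 without control 1, 5 without cKO 1, 4 without cKO 2 and 6 or more without any other library. Since 3 libraries above 1 CPM were enough to be tested, a gene with few reads could enter on its controls alone. When every library had to exceed 1 CPM, 6 of 12 other snRNA genes were lower and 0 higher, against 753 and 845 of all 11232 genes. Without a filter on low counts, 6 of 364 were lower and 0 higher, against 673 and 883 of all 27286 genes. Without that filter the share of snRNA genes lower was not above that of all genes. The summed level of the other snRNA genes was 1023 ± 343 CPM in controls and 437 ± 148 CPM in cKO (SD, n = 3 each). These genes belong to families of near-identical copies, so the level of any 1 gene is uncertain.

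The 5 other snRNA genes with the highest mean CPM were Gm24265, Gm25939, Gm24407, Gm22513 and Gm25099, and all 5 fell. Gm24407 went from 209.6 ± 78.7 to 63.9 ± 36.1 CPM (log2 fold change -1.71, SE 0.53, adjusted p = 2.3e-05). Gm22513 had a log2 fold change of -1.48 (adjusted p = 0.000845), Gm24265 of -1.45 (adjusted p = 0.000377), Gm25939 of -1.17 (adjusted p = 5.37e-05) and Gm25099 of -0.82 (adjusted p = 0.0114; edgeR exact test for all). As in Rnu12 and Rnu11, control 2 was the lowest control and cKO 3 the highest cKO library in each of these 5 genes. Of the 5, Gm25099 lost its call without control 1, cKO 1 or cKO 2, and the other 4 kept theirs in each of 6 fits without 1 library.

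Divided by sequence, 5 of 10 tested snRNA genes with the A, T-run and G of the Sm site fell (50%, median log2 fold change -0.76), and 4 of 16 without it (25%, median -0.25). Over all genes tested 6.84% fell. The search is incomplete, since the Sm site of some snRNAs has other letters. Genes such as Gm22107 (log2 fold change 0.60, SE 0.29, adjusted p = 0.0986) and Rnu5g (0.50, SE 0.41, adjusted p = 0.514) had values above 0 but did not pass the test. Of the 7 snRNA genes with a mean of at least 5 CPM, 5 fell (71.4%, against 6.84% of all genes tested). The other genes called lower had few reads. Gm25541, Gm24967, Gm23143 and Gm23217 went from 2.76, 1.55, 1.45 and 2.19 CPM in controls to 1.25, 0.63, 0.54 and 0.61 CPM in cKO. In the fits without 1 library that tested them, they kept the call in 2 of 6, 1 of 3, 1 of 3 and 3 of 6. Of these, Gm24967 and Gm23143 were above 1 CPM in the controls alone. They could be tested only through their controls, so a lower cKO level was partly built into their entry.

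**Figure D3:**
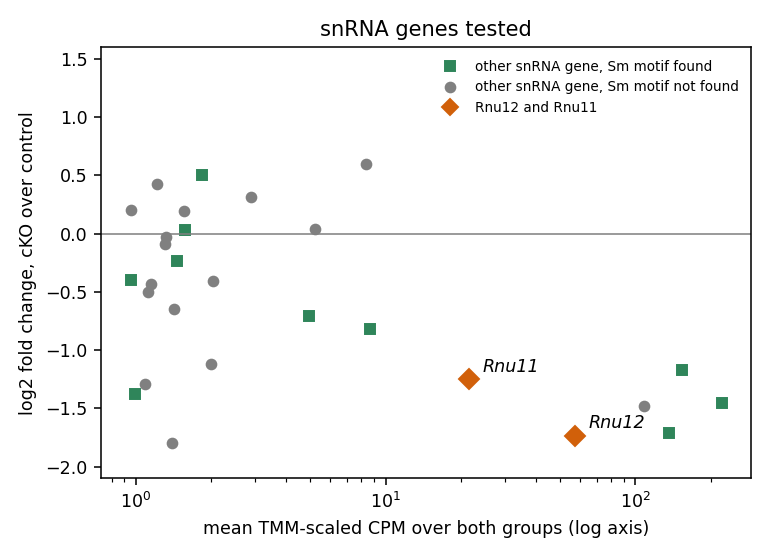
log2 fold change (Rnmt cKO over control) against the mean TMM-scaled CPM over both groups (log axis) for Rnu12, Rnu11 and 26 other snRNA genes tested, each point 1 gene, squares with and circles without the A, T-run and G letters. Rnu12 and Rnu11 sit among the genes with more reads, of which 5 of 7 other snRNA genes at 5 CPM or more fell. Genes with fewer reads scatter to both sides of 0, and of these Gm25541, Gm24967, Gm23143 and Gm23217 were called lower.

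Of 11 proteins that act with the minor spliceosome outside the di-snRNP 10 were tested. By the edgeR exact test 1 was lower (10%, against 6.84% of all genes tested) and 0 were higher (4 at an unadjusted p under 0.05, and 0 adjusted by the quasi-likelihood test or DESeq2), with a median log2 fold change of 0.11. Txnl4b, a relative of the tri-snRNP protein Dim1, fell from 8.50 ± 0.283 to 4.96 ± 0.696 CPM (log2 fold change -0.77, SE 0.11, adjusted p = 0.00279, edgeR exact test), and it passed in each of 6 fits without 1 library. Without control 2 or cKO 3, 1 factor was higher. For Scnm1, Rbm41, Rbm48 and Ppil2 every cKO library was above every control (4 of 10 factors, against 16.6% of all genes tested) without passing the test, with log2 fold changes of 0.33, 0.26, 0.24 and 0.17 (adjusted p = 0.0661, 0.0836, 0.170 and 0.196). Zrsr1, Armc7, Ccdc84, Cript and Rnf113a1 had overlapping groups.

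The SF3b complex, which both spliceosomes use to hold the branch site, had 2 of 7 members higher by the edgeR exact test (28.6%, against 8.0% of all genes tested). By that test 0 were lower (0 lower at an unadjusted p under 0.05, by the quasi-likelihood test and by DESeq2), with a median of 0.07. Sf3b4 rose from 18.7 to 26.3 CPM (log2 fold change 0.49, SE 0.14, adjusted p = 0.0125) and Phf5a from 22.99 to 31.9 CPM (0.47, SE 0.16, adjusted p = 0.0165; edgeR exact test). Both lost the call without control 2, control 3 or cKO 3, and the count of SF3b genes higher was then 0, 0 and 1. Sf3b1, the scaffold subunit, had a log2 fold change of 0.20 (SE 0.09, adjusted p = 0.252).

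The genes that make and mature snRNPs were counted last. Of the 7 proteins of the Sm ring 1 was lower (14.3%, against 6.84% of all genes tested), Snrpg, from 37.6 to 26.3 CPM (log2 fold change -0.51, SE 0.18, adjusted p = 0.00986, edgeR exact test). By that test 0 were higher (0 at an unadjusted p under 0.05, by the quasi-likelihood test and by DESeq2), with a median of -0.14. Snrpg lost the call without control 1, cKO 1 or cKO 2, which left 0 lower, and without cKO 3 the count lower was 3. Of 20 genes for snRNP assembly, export and cap trimethylation 19 were tested and 0 changed in either direction by the edgeR exact test, at an unadjusted p under 0.05, by the quasi-likelihood test or by DESeq2 (median 0.02). At the threshold of the exact test 6.84% of all genes tested were lower and 8.0% higher, shares that amount to few of 19 genes. Among the 19, Tgs1, which trimethylates the snRNA cap, had a log2 fold change of 0.04 (SE 0.06) and Phax, the export adaptor, of 0.05 (SE 0.08). Of 24 genes for snRNA transcription and 3′ end processing 2 rose (8.33%, close to the 8.0% of all genes tested) and 0 fell by the edgeR exact test (0 lower at an unadjusted p under 0.05, by the quasi-likelihood test and by DESeq2; median 0.04). These were Snapc2, a subunit of the snRNA activating complex (0.70, SE 0.25, adjusted p = 0.00918), and Ints3, an Integrator subunit (0.28, SE 0.04, adjusted p = 0.0246). Snapc2 lost the call without control 3, and Ints3 kept it in 1 of 6 fits without 1 library.

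Genes with matches to U12-type motifs were sought among 251071 introns of protein-coding genes. Both ends could be read from transcript sequences in 20881 of them, where an exon of an annotated transcript covered each end. The list is therefore limited to such introns. By the rule of the printed examples, GTATCCTT or ATATCCTT at the start and the motif TTAAC, the motif TTGAC or the motif CTTAA in the last 40 bases, 46 introns in 40 genes qualified. The rule set no letters for the last bases of an intron, and whether a match is a U12-type intron was not tested. Of the 38 genes tested 0 were lower and 3 higher (7.89%) by the edgeR exact test, with a median log2 fold change of 0.07 and 16 genes below 0. At an unadjusted p under 0.05 1 was lower, and by the quasi-likelihood test and DESeq2 0. Leaving out cKO 2 left 0 higher, leaving out any 1 control left 1, and leaving out cKO 3 gave 5 higher and 3 lower. Among all 5529 tested genes with a readable intron 6.06% were lower and 8.66% higher, with a median of 0.03, so that the share of higher genes was close to that background. Levels of whole genes were measured, and retention of these introns was not analysed here.

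The 3 genes that passed were Ubl5, Hnrnpl and Spc24. Ubl5, a ubiquitin-like protein of the spliceosome, rose from 45.8 to 59.4 CPM (log2 fold change 0.38, SE 0.10, adjusted p = 0.00855), and Hnrnpl, an RNA-binding splicing regulator, from 305 to 364 CPM (0.25, SE 0.0098, adjusted p = 0.0354). Spc24, a kinetochore protein named after its values were seen because it lies under 5 CPM, rose from 1.03 to 2.99 CPM (1.52, SE 0.47, adjusted p = 0.00485; edgeR exact test for all 3). Of the genes whose intron ends are printed, E2f6 had a log2 fold change of -0.29 (adjusted p = 0.233), Pola2 of -0.03 and Trappc2 of -0.05, and none of these 3 passed the edgeR exact test. In the 6 fits without 1 library Ubl5 kept its call in 3, Spc24 in 4 and Hnrnpl in 1.

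**Figure D4:**
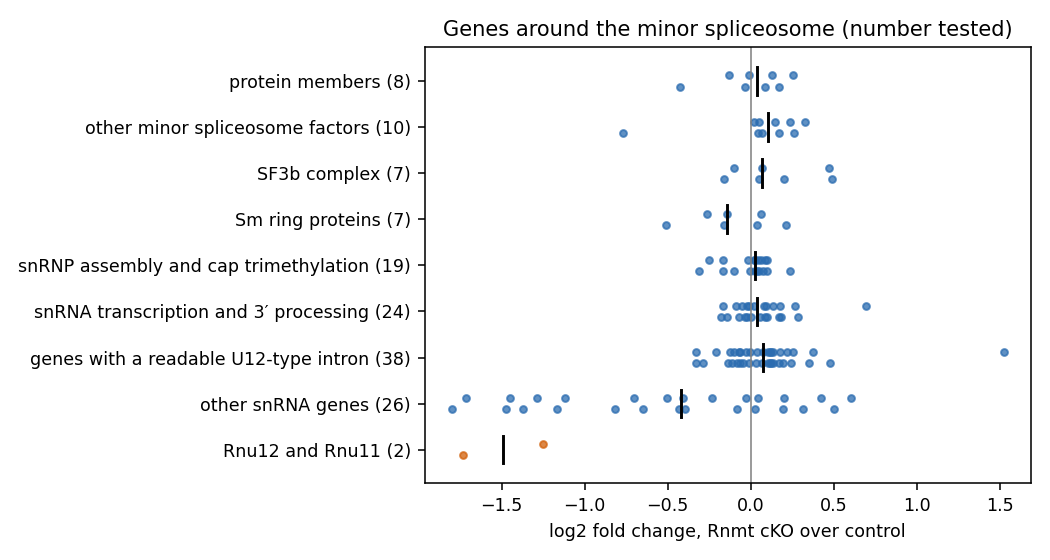
log2 fold change (Rnmt cKO over control) of each tested gene in 9 groups, 1 point per gene, with a bar at the group median and the number tested in parentheses. Rnu12 and Rnu11 lie at -1.74 and -1.25 and the 26 other snRNA genes have a median of -0.42, whereas the medians of the 7 protein groups lie between -0.14 and 0.11.

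Markers of other cells also differed between the groups. Summed B cell markers were at 34.2 to 40.3 CPM in controls and 43.8 to 74.9 CPM in cKO (4 of 6 higher), and myeloid markers at 23.9 to 28.9 and 27.7 to 37.4 CPM (1 of 3 tested higher, of 6). CD8 T cell markers were at 21.7 to 23.3 and 13.5 to 17.3 CPM (2 of 2 lower), and erythroid markers at 4.75 to 7.52 and 1.06 to 1.35 CPM (2 of 2 tested lower, of 5), where Hba-a1 was at 0 in 2 libraries and Hba-a2 and Hbb-bt in 1 each. The part of these cells in the snRNA values was not tested.

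The genes whose log2 CPM over the 6 libraries was most like that of Rnu12, among 9705 tested genes with a mean of at least 5 CPM, were Faf2 (Pearson r 0.997), Cd8b1, Tpt1-ps3 and Snord15a (each 0.995) and Tdrp (0.994). For Rnu11 they were Rpl22l1 (0.995), Gstk1 and Uqcc2 (each 0.994), Snord17 (0.993) and Gm24146 (0.992). Of these, Snord15a and Snord17 are small nucleolar RNAs, with log2 fold changes of -1.62 and -1.61. With 6 libraries in 2 groups, high values of r arise for many genes that differ by group, and they are given as a description.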

How the data were processed

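The authors aligned paired-end reads to mm10 (GRCm38) with STAR (2.5.2b per the labels) and the GENCODE vM12 annotation, and deposited raw gene counts from uniquely mapping fragments in 3 columns (without strand, and on either strand) for 6 libraries. The authors also deposited an edgeR table with a normalized signal per library, log2 fold changes and p-values, of which only the signal was used, to identify the sense column: that column divided by 1 constant gave the signal for 100% of genes (tolerance 0.1%). The 4 lines that name no gene were kept out. Depth was 8873413 to 11277764 sense counts per library.

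Genes above 1 CPM in 3 or more libraries were TMM-scaled and tested in edgeR 4.0.16 (R 4.3.3) by the exact test, as in the study, here on tagwise dispersions, with Benjamini-Hochberg adjustment over 12336 genes and a threshold of 0.05. SEs come from per-library log2 CPM with a prior count of 2. edgeR's quasi-likelihood test, DESeq2 1.42.0 and other scalings, filters and library sets were tried. The code was checked on simulated data. Symbols, coordinates and sequences came from GENCODE vM21 (GRCm38).

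Members and gene lists were chosen with earlier results of these data known. Named were all members, Rnmt, genes past the threshold in each list (at most 4 in each direction by fold change; for U12-type intron genes at most 5 with a mean of at least 5 CPM), the 5 snRNA genes with the highest CPM and the 5 nearest patterns of each snRNA; other genes were named after their values were seen. The U12-type intron rule had been written for a genome, and no genome was used here, so it was applied to introns readable in annotated transcripts, a choice made after seeing the files. Replicate numbers did not pair the libraries. 1 gene is not reported here.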

Additional observations from a re-analysis of the deposited data

How the results depend on the processing

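Over the alternatives that gave a value, the log2 fold change ranged from -2.14 to -1.18 for Rnu12 (16 values) and from -1.52 to -0.83 for Rnu11 (15 values), a description of the contrast the members were chosen on. Scaling by library size alone moved the median over all genes, on the log2 scale, from 0.01 to 0.14 (535 lower and 1938 higher; higher genes were 78.4% of calls against 53.9%). With that scaling 1 member, Pdcd7, was higher (0.38), as were 1 other snRNA gene, 4 other minor spliceosome factors, 1 Sm protein, 4 snRNA transcription genes and 6 U12-type intron genes. With the share of reads in no gene as a covariate 1466 genes were lower and 1696 higher, with 1 member (Pdcd7, 0.27), 1 other snRNA gene, 3 minor spliceosome factors, 1 Sm protein and 5 U12-type intron genes higher and 1 snRNA transcription gene and 2 U12-type intron genes lower. Zmat5 passed with that covariate (-0.38), without control 3 (-0.58) and without cKO 3 (-0.57), and in no other alternative. In counts without strand 1 member was lower, since Rnu11 had no counts there. DESeq2 called 5 other snRNA genes lower and 1 snRNA transcription gene higher, and no filter on low counts 1 snRNA transcription gene higher.

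Replicate numbers did not pair the libraries (correlations of same-numbered deviations -0.213, -0.0164 and -0.345, and no library was most like its own number). A quasi-likelihood fit with the replicate block gave 276 genes lower and 431 higher, against 636 and 793 without it. With the block 4 other snRNA genes were lower, 0 other minor spliceosome factors lower, 0 SF3b genes higher, 0 Sm proteins lower, 0 snRNA transcription genes higher and 1 U12-type intron gene higher. The members' calls were 2 lower and 0 higher with it.

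Leaving out 1 library at a time gave 4 to 9 other snRNA genes lower and 0 to 1 higher, 0 to 1 minor spliceosome factors higher, 0 to 1 SF3b genes lower and 0 to 2 higher, 0 to 3 Sm proteins lower, 0 to 1 snRNA transcription genes lower and 0 to 2 higher, and 0 to 3 U12-type intron genes lower and 0 to 5 higher. Without cKO 3, the library with the smallest share of reads in no gene, 1285 genes were lower and 1221 higher. The cause of these shifts was not tested. The U12-type intron list read from a genome was not run. Its replacement, added after seeing the data, was also run with the first 8 bases alone required. That version took in introns whose last 40 bases could not be read, a pool of 44087 introns against 20881. It gave 3 lower (2.34%) and 8 higher (6.25%) of 128 genes tested, against 6.84% and 8.0% of all genes tested. No result changed direction past the threshold. Snrnp35 and Snrnp25, with 24 to 66 reads per library, allow only coarse statements.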
